A study of Mus musculus with 16 samples.

Results

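In whole left ventricle, 43 genes that macrophages and monocytes express were followed. Several of them are also expressed by other cells, so their levels are not specific to macrophages and monocytes. The genes were chosen by name, with earlier results of these data known. Every one was matched by its Ensembl gene ID in the table of 57186 gene IDs. Of the 43, 41 passed the filter on low counts and were tested, among 15206 tested genes in all. RNA was sequenced in bulk from the left ventricle of C57/BL6N mice in 4 groups of 4 biological replicates, 16 libraries together. The groups were control mice (WT) after sham surgery, WT after transverse aortic constriction (TAC, a narrowing of the aorta that loads the left ventricle with pressure), mice with a cardiomyocyte-specific knockout of the transcription factor TFEB (cKO-TFEB in the labels, cKO here) after sham surgery, and cKO after TAC. The knockout is described as restricted to cardiomyocytes, so macrophages are not named as its target. The driver of the deletion, the age of the mice and the time after surgery are not given in the sources used here.

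The heart holds resident macrophages, many of which are seeded before birth, renew locally and clear dying cells and debris; they are known for the mannose receptor Mrc1 and for Lyve1, Folr2 and Timd4. Monocytes that carry the chemokine receptor CCR2 enter from blood, drawn by ligands such as CCL2, CCL7 and CCL12, and become macrophages that present antigen or take up lipid. Pressure overload is known to change both populations in mice. In bulk tissue, more cells of a type and more RNA per cell cannot be told apart.

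Libraries held 12946878 to 16347388 counts each. Levels below are CPM, that is counts scaled to a common library size, with TMM factors that correct for differences in composition. Tfeb itself averaged 36.5 ± 3.94 CPM in WT against 10.5 ± 1.74 in cKO after sham, and 29.1 ± 9.77 against 12.7 ± 2.34 after TAC (mean ± SD, n = 4, as for all means below). WT sham replicate 3 and WT TAC replicate 4 carried the most atrial transcripts (Sln, Myl7, Myl4 and Bmp10 summed to 2392 and 797 CPM, against 2.06 to 249 in the other libraries). WT sham replicates 2 and 4 held 249 and 131 CPM, and the cKO libraries 3.88 to 22.8 CPM, so these transcripts were uneven between genotypes. Without WT sham replicate 3 and WT TAC replicate 4, 14 members were called higher with TAC in WT and 16 in cKO. In that fit 1 member was called higher in cKO than in WT under sham and 0 under TAC.

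The first question was how the macrophage and monocyte genes responded to pressure overload in each genotype. In WT, 16 of the 41 tested members were higher in TAC than in sham and 0 were lower. They included the macrophage receptor gene Adgre1 (1.87-fold), the macrophage membrane protein gene Ms4a7 (3.26-fold), the complement subunit gene C1qc (1.69-fold), the monocyte receptor gene Ccr2 (2.5-fold) and the CCR2 ligand gene Ccl12 (3.97-fold). In cKO, 17 members were higher and 0 lower, among them Ms4a7 (2.69-fold), Adgre1 (1.8-fold) and the fractalkine receptor gene Cx3cr1 (3.57-fold). A member was called when the quasi-likelihood F-test of edgeR gave a Benjamini-Hochberg adjusted p under 0.05 over all tested genes.

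The 16 members are 39.0% of those tested, against 9.70% of all genes that were higher and 6.14% that were lower in WT TAC. The 17 members are 41.5%, against 14.2% of all genes higher and 12.4% lower in cKO TAC. As the list was chosen with earlier results of these data known, these shares are a description and no test. The median log2 fold change was 0.64 over the members and -0.01 over all genes in WT, and 0.57 and 0.00 in cKO. All 41 estimates were positive in WT, and 36 were positive and 5 negative in cKO. At an unadjusted p under 0.05, 27 members were higher in WT and 22 in cKO, and 0 were lower in either. Of all 15206 genes, 4760 in WT and 5818 in cKO were under that p, in either direction. DESeq2 called 21 higher in each genotype, limma voom called 16 in WT and 20 in cKO, and both called 0 lower. Of all genes, DESeq2 called 1665 higher in WT and 2272 in cKO, and limma voom 1443 and 2237. Scaled by library totals without TMM, all genes had a median that was 0.125 log2 higher in WT and 0.192 in cKO, and 20 and 23 members were called higher. Calls over all genes rose too under that scaling, from 1475 to 2170 higher in WT and from 2154 to 4013 in cKO. All 41 estimates in WT were again positive under library totals, while under DESeq2 size factors 1 was negative. In cKO, 5 were negative under DESeq2 size factors and 2 under library totals.

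**Figure D1:**
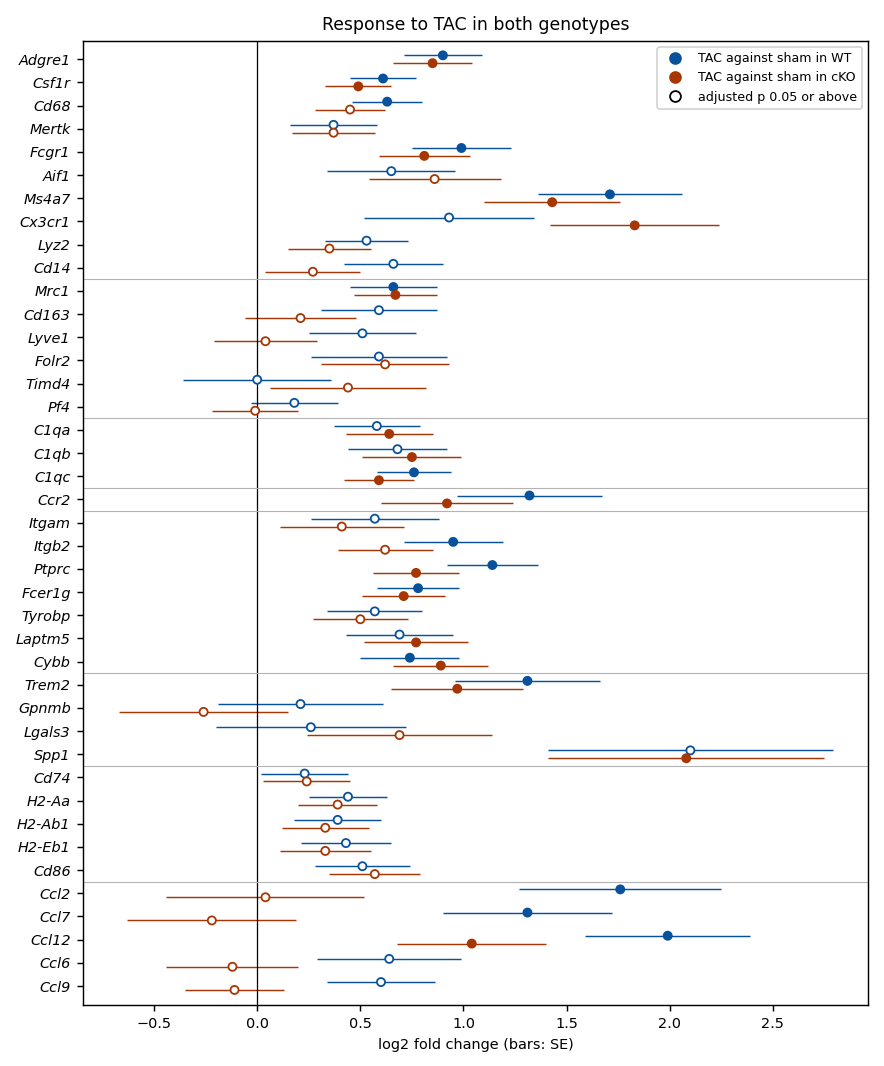
Log2 fold change of TAC against sham for the 41 tested members in WT (blue) and cKO (brown), with bars for the SE and filled points for an adjusted p under 0.05; grey lines separate the roles in the order of the text. Most points lie right of 0 in both genotypes, and among the chemokine genes at the bottom Ccl2 lies at 1.76 in WT and 0.04 in cKO.

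Both genotypes shared 12 of the called members, namely Adgre1, C1qc, Ccl12, Ccr2, Csf1r, Cybb, Fcer1g, Fcgr1, Mrc1, Ms4a7, Ptprc and Trem2. A further 4 passed in WT alone (Ccl2, Ccl7, Cd68 and Itgb2) and 5 in cKO alone (C1qa, C1qb, Cx3cr1, Laptm5 and Spp1). The difference between the responses was tested by the interaction, in which 0 members passed, so no member was shown to respond differently. Every library of TAC lay above every library of sham for 18 members in WT, against 11.0% of all genes, and for 8 members in cKO, against 15.5%. In cKO the share of members whose libraries were apart was thus near that of all genes.

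Summed over the 43 members, the WT libraries reached 871, 679, 741 and 601 CPM after sham and 1251, 992, 886 and 1086 CPM after TAC, so the WT groups did not overlap. The cKO libraries reached 736, 1277, 969 and 846 CPM after sham and 1635, 1226, 1226 and 1149 CPM after TAC, where replicate 2 of sham lay above replicates 2, 3 and 4 of TAC. That sham library was the highest of its group for 36 of the 41 tested members, and cKO TAC replicate 1 was the highest of all 16 libraries for 25. With both of these libraries left out, 18 members were called higher with TAC in cKO. Leaving out 1 library at a time gave 8 to 18 calls in WT, with 10 without WT sham replicate 2, 8 without WT sham replicate 4 and 10 without WT TAC replicate 1. Of all genes, 1294, 1102 and 897 were called higher in these WT fits, against 1475 with every library. In cKO, leaving out 1 library gave 5 to 23 calls, with 6, 9 and 8 without cKO sham replicates 1, 3 and 4, and 5 and 10 without cKO TAC replicates 1 and 2. Of all genes, 1586, 1606, 1656, 1447 and 1605 were called higher in these cKO fits, against 2154 with every library. Without a filter on low counts, 11 members and 1838 of all genes were called higher in cKO. Under every alternative tried, 6 calls held in WT (Adgre1, Fcgr1, Ms4a7, C1qc, Ptprc and Ccl12) and 5 in cKO (Adgre1, Ms4a7, Cx3cr1, Ptprc and Cybb), and no called member changed direction.

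**Figure D2:**
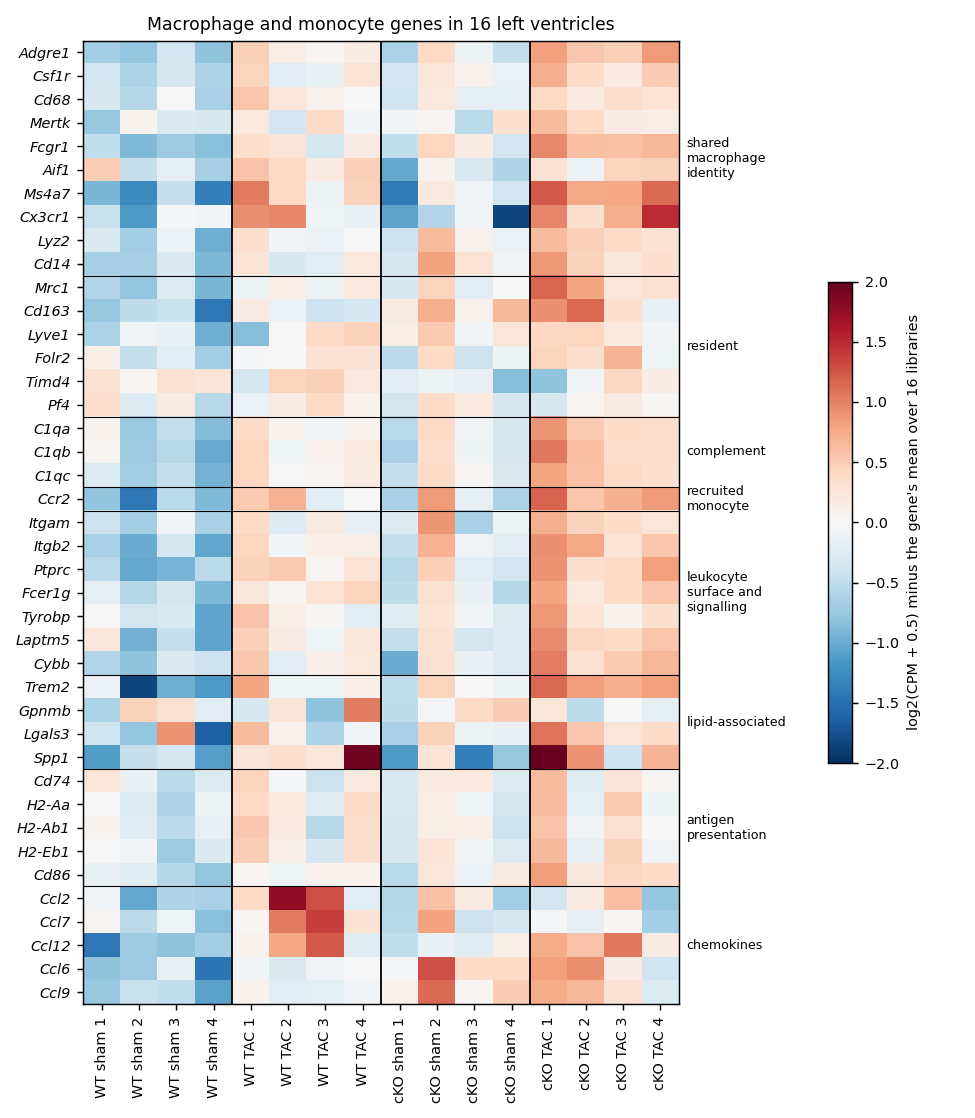
Each row is a tested member and each column a library; colour gives log2(CPM + 0.5) minus the mean of that gene over the 16 libraries, on a scale limited to 2 in either direction, and black lines separate groups and roles. The WT sham columns are mostly blue and the cKO TAC columns mostly red, cKO sham replicate 2 is redder than the rest of its group, and cKO TAC replicate 1 holds the highest value of 25 members.

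Levels between genes were compared as mean CPM per kilobase of merged exons, over the 16 libraries. Exon lengths came from GENCODE M21 on GRCm38, and merging all exons of a gene makes some lengths long. Lyz2, the gene of the bactericidal enzyme lysozyme, was the highest at 124 CPM per kilobase. The invariant chain gene Cd74 followed at 83, then the complement genes C1qa at 62.6 and C1qb at 58.6. At the other end stood the monocyte genes Plac8 at 0.287 and Ly6c2 at 0.171. Those 2 genes had 109 and 113 counts over all libraries together, and they fell below the filter on low counts.

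Of the 10 genes shared by most macrophages, 5 rose with TAC in each genotype, Adgre1, Csf1r, Fcgr1 and Ms4a7 in both, Cd68 in WT and Cx3cr1 in cKO. Adgre1 (ENSMUSG00000004730) encodes F4/80, the classical surface marker of mouse macrophages, and stood at 7.49, 7.02, 9.38 and 6.88 CPM after sham and 17.3, 13.6, 12.8 and 13.8 CPM after TAC in WT. Adgre1 in cKO was at 7.76, 16.4, 11.5 and 8.72 CPM after sham and 22.2, 18.1, 17.3 and 22.6 CPM after TAC. All TAC libraries lay above all sham libraries of the same genotype. The rise was log2 0.90, SE 0.19, adjusted p = 0.00484 in WT and log2 0.85, SE 0.19, adjusted p = 0.00307 in cKO. Ms4a7 (ENSMUSG00000024672), a membrane protein of macrophages, was at 1.76, 1.27, 2.59 and 1.16 CPM after sham and 8.24, 5.12, 3.5 and 5.37 CPM after TAC in WT. Ms4a7 in cKO was at 1.11, 4.4, 3.57 and 2.77 CPM after sham and 9.52, 6.76, 6.81 and 8.83 CPM after TAC. Again sham and TAC did not overlap in either genotype, and cKO sham replicate 1 lay below all WT sham libraries. Ms4a7 rose by 1.71 (SE 0.35, adjusted p = 0.00387) on the log2 scale in WT and by 1.43 (SE 0.33, adjusted p = 0.00421) in cKO.

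Lyz2 (ENSMUSG00000069516) held 127, 95.7, 144 and 79.3 CPM after sham and 197, 148, 143 and 155 CPM after TAC in WT. Lyz2 in cKO held 117, 241, 166 and 143 CPM after sham and 242, 217, 203 and 191 CPM after TAC. Sham and TAC overlapped in both genotypes, and the difference did not pass (log2 0.53, SE 0.20, adjusted p = 0.0883 in WT and log2 0.35, SE 0.20, adjusted p = 0.217 in cKO). Csf1r, the receptor for the growth factor that keeps macrophages alive, rose from 36.2 ± 4.1 CPM to 55.2 ± 12.2 CPM in WT (log2 0.61, SE 0.16, adjusted p = 0.0164). It rose from 50.2 ± 9.39 CPM to 70.4 ± 11.2 CPM in cKO (log2 0.49, SE 0.16, adjusted p = 0.0297). Csf1r overlaps Hmgxb3 on the other strand, and the counting is not stated to use strand, so part of its counts may belong to that gene. Cx3cr1 overlaps the antisense gene Gm33858, which had 6 counts in all. Fcgr1, the high-affinity receptor for IgG, rose by 0.99 (SE 0.24, adjusted p = 0.0101) in WT and 0.81 (SE 0.22, adjusted p = 0.0128) in cKO. Cd68, a glycoprotein of macrophage lysosomes, rose by 0.63 (SE 0.17, adjusted p = 0.0183) in WT and was at 0.45 (SE 0.17, adjusted p = 0.0554) in cKO. Cx3cr1, the receptor of the chemokine fractalkine, rose by 1.83 (SE 0.41, adjusted p = 0.00453) in cKO and was at 0.93 (SE 0.41, adjusted p = 0.128) in WT. Mertk (a receptor for dying cells), Aif1 (an actin binding protein known as Iba1) and Cd14 (a coreceptor for lipopolysaccharide) were at 0.37, 0.65 and 0.66 in WT and 0.37, 0.86 and 0.27 in cKO, and none of the 3 passed by edgeR. Closest were Aif1 in cKO (adjusted p = 0.0519) and Cd14 in WT (adjusted p = 0.0663). DESeq2 and limma voom called Aif1 and Cd68 in cKO, and DESeq2 called Cd14 in WT. In WT the call was lost for Csf1r without any 1 of WT sham replicate 4 and WT TAC replicate 1 (log2 0.48 to 0.56) and Cd68 without any 1 of WT sham replicates 2 and 4 and WT TAC replicate 1 (log2 0.50 to 0.56). In cKO it was lost for Csf1r without any 1 of cKO sham replicates 1 and 4 and cKO TAC replicates 1 and 4 (log2 0.38 to 0.47) and Fcgr1 without any 1 of cKO sham replicate 1 and cKO TAC replicate 1 (log2 0.67 to 0.71). Csf1r in cKO also missed the threshold without both cKO sham replicate 2 and cKO TAC replicate 1 (adjusted p = 0.0541).

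**Figure D3:**
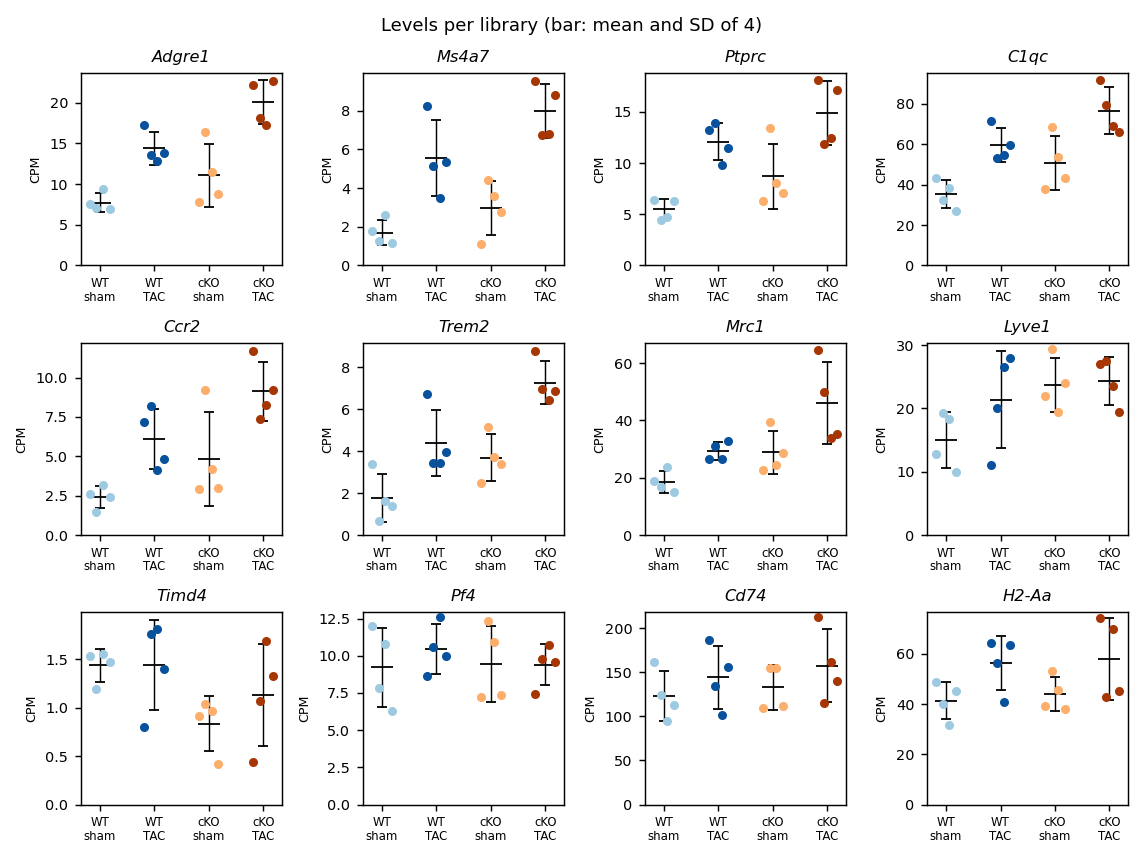
CPM of 12 members in each library, by group; bars give the mean and SD of 4 libraries, and each axis starts at 0. Adgre1 and Ms4a7 show sham and TAC apart in both genotypes, while the groups of Lyve1, Timd4, Pf4, Cd74 and H2-Aa overlap between sham and TAC.

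Among the 6 genes of resident macrophages, Mrc1 rose with TAC and the other 5 did not pass in either genotype. Mrc1 (ENSMUSG00000026712), the mannose receptor that takes up glycoproteins, stood at 18.9, 16.6, 23.6 and 15 CPM after sham and 26.6, 31, 26.6 and 32.8 CPM after TAC in WT. Mrc1 in cKO stood at 22.8, 39.3, 24.6 and 28.6 CPM after sham and 64.6, 50.0, 33.9 and 35.4 CPM after TAC. The WT groups did not overlap, while cKO sham replicate 2 exceeded cKO TAC replicates 3 and 4. Mrc1 rose by 0.66 (SE 0.21, adjusted p = 0.0433) in WT and 0.67 (SE 0.20, adjusted p = 0.0233) in cKO. Folr2 (ENSMUSG00000032725), a folate receptor, was low, at 1.61, 0.896, 1.18 and 0.696 CPM after sham and 1.4, 1.45, 1.88 and 1.87 CPM after TAC in WT. Folr2 in cKO was at 0.848, 2.07, 0.968 and 1.31 CPM after sham and 2.14, 1.96, 2.63 and 1.33 CPM after TAC. Its groups overlapped, and it did not pass (log2 0.59, SE 0.33, adjusted p = 0.229 in WT and log2 0.62, SE 0.31, adjusted p = 0.15 in cKO). An antisense transcript, Gm10602, overlaps Folr2 with 439 counts against 365 for Folr2 itself, so its reads may be shared.

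The remaining resident genes are the haemoglobin scavenger receptor Cd163, the hyaluronan receptor Lyve1, the phosphatidylserine receptor Timd4 and the chemokine Pf4. Cd163 averaged 14.3 ± 4.04 CPM after sham and 21.6 ± 4.11 CPM after TAC in WT, and 33 ± 7.52 CPM and 38.2 ± 14.9 CPM in cKO. Lyve1 averaged 15 ± 4.41 CPM, 21.4 ± 7.71 CPM, 23.7 ± 4.24 CPM and 24.3 ± 3.74 CPM in the same order. Timd4 averaged 1.44 ± 0.165 CPM, 1.44 ± 0.467 CPM, 0.833 ± 0.283 CPM and 1.13 ± 0.526 CPM, and Pf4 averaged 9.22 ± 2.64 CPM, 10.4 ± 1.63 CPM, 9.45 ± 2.56 CPM and 9.38 ± 1.38 CPM. For Pf4 all 4 means thus lay within 1 SD of each other. The TAC estimates in WT were 0.59 for Cd163, 0.51 for Lyve1, 0.00 for Timd4 and 0.18 for Pf4. In cKO they were 0.21, 0.04, 0.44 and -0.01. The group median was 0.55 in WT and 0.33 in cKO. In WT the call was lost for Mrc1 without any 1 of WT sham replicates 1, 2 and 4 and WT TAC replicates 1, 2, 3 and 4 (log2 0.57 to 0.70). In cKO it was lost for Mrc1 without any 1 of cKO sham replicates 1, 3 and 4 and cKO TAC replicates 1 and 2 (log2 0.46 to 0.67). Mrc1 in WT also missed the threshold without a filter on low counts (adjusted p = 0.133) and without the 2 WT libraries rich in atrial transcripts (adjusted p = 0.0521). Mrc1 in cKO also missed the threshold without a filter on low counts (adjusted p = 0.0846) and when the other 2 groups were kept out of the fit (adjusted p = 0.0627).

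The complement genes C1qa, C1qb and C1qc encode the 3 chains of C1q, which starts the classical complement pathway and is made by macrophages. In cKO all 3 rose with TAC, and in WT C1qc rose. C1qc (ENSMUSG00000036896) was at 43.3, 32.5, 38.1 and 27.1 CPM after sham and 71.3, 52.9, 54.7 and 59.4 CPM after TAC in WT. C1qc in cKO was at 37.8, 68.5, 53.4 and 43.2 CPM after sham and 91.8, 79.4, 69 and 66 CPM after TAC. WT sham and TAC were fully apart, and in cKO replicate 2 of sham (68.5 CPM) lay above replicate 4 of TAC (66.0 CPM). C1qb (ENSMUSG00000036905) was at 61.5, 35.8, 40.6 and 29.4 CPM after sham and 80.4, 56.2, 63 and 68.2 CPM after TAC in WT. C1qb in cKO was at 37.8, 76.4, 55.8 and 47.7 CPM after sham and 124, 90.8, 75.5 and 76.1 CPM after TAC. C1qa (ENSMUSG00000036887) was at 64.6, 36.9, 44.3 and 33.6 CPM after sham and 79.7, 64.6, 59.6 and 64.8 CPM after TAC in WT. C1qa in cKO was at 42.6, 80.8, 59.1 and 49.4 CPM after sham and 115, 88.7, 79.7 and 78.7 CPM after TAC. For both genes sham replicate 1 was the highest of WT sham and reached into the range of TAC. The differences in cKO, all past the threshold, were 0.64 (SE 0.21, adjusted p = 0.0339) for C1qa, 0.75 (SE 0.24, adjusted p = 0.0309) for C1qb and 0.59 (SE 0.17, adjusted p = 0.0183) for C1qc. In WT the same genes were at 0.58 (SE 0.21, adjusted p = 0.073), 0.68 (SE 0.24, adjusted p = 0.069) and 0.76 (SE 0.18, adjusted p = 0.00833), and C1qc passed. DESeq2 and limma voom called all 3 in WT as well. Without WT sham replicate 1, C1qa (log2 0.81) and C1qb (log2 0.92) passed in WT too. The call of C1qa in cKO was lost without any 1 of cKO sham replicates 1, 3 and 4 and cKO TAC replicates 1 and 2 (log2 0.50 to 0.65). The call of C1qb in cKO was lost without any 1 of cKO sham replicates 1, 3 and 4 and cKO TAC replicates 1 and 2 (log2 0.56 to 0.76). The call of C1qc in cKO was lost without any 1 of cKO sham replicates 1 and 4 and cKO TAC replicate 1 (log2 0.48 to 0.52). C1qa in cKO also missed the threshold without a filter on low counts (adjusted p = 0.118) and without the 2 WT libraries rich in atrial transcripts (adjusted p = 0.0502). C1qb in cKO also missed the threshold without a filter on low counts (adjusted p = 0.103). C1qc in cKO also missed the threshold without a filter on low counts (adjusted p = 0.0526).

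The 3 C1q genes lie side by side, and the start regions of 2 of them are shown because both genes were called higher with TAC in cKO and hold the core motif of the ETS factor PU.1 (Spi1), which is known to drive macrophage genes. Each window runs from 250 bases before to 50 bases after the transcription start, as RefSeq gives it on GRCm38.p6, a different build from the GRCm39 used for counting. The C1qb window is chr4:136886151-136886450 on the minus strand and the C1qc window chr4:136892865-136893164 on the minus strand. Capitals mark the motif AGGAAGT, read here on the opposite strand as ACTTCCT, or as ACTTCCTC where the longer GAGGAAGT matches.
C1qb: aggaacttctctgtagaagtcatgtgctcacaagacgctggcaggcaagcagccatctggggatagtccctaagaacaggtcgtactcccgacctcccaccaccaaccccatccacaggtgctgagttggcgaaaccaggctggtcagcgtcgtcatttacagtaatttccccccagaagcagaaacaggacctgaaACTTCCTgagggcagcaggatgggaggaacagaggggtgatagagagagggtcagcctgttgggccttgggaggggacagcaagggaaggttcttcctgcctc
C1qc: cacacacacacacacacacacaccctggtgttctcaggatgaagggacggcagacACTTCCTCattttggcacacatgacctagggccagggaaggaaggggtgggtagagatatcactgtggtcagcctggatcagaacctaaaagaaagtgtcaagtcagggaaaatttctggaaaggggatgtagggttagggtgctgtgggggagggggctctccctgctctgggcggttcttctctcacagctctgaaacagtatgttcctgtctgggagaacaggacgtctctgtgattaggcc
AGGAAGT on either strand was present in 14 of 37 windows of 31 members (37.8%), against 9.35% of 32851 windows of all genes. The members that hold it are C1qb, C1qc, Ccl12, Ccl6, Fcgr1, Folr2, Ly6c2, Lyz2, Mrc1, Pf4, Ptprc and Spp1. C1qa, also called higher with TAC in cKO, is not among them, and only 31 of the 43 members had a window. The longer GAGGAAGT, which contains AGGAAGT, was present in 5 windows (13.5%), against 3.2%. CACGTG, the E-box that TFEB is known to bind, was in 0 of the 37 windows, against 7.15% of all windows. A match of letters is no evidence of binding, and these forms of the motifs were chosen after others had been looked at.

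Of the genes of recruited monocytes only Ccr2 passed the filter on low counts, and it rose in both genotypes. Ccr2 (ENSMUSG00000049103), the receptor that brings monocytes out of marrow and blood, was at 2.6, 1.49, 3.18 and 2.4 CPM after sham and 7.18, 8.18, 4.14 and 4.84 CPM after TAC in WT. Ccr2 in cKO was at 2.93, 9.19, 4.17 and 2.97 CPM after sham and 11.7, 7.39, 8.25 and 9.19 CPM after TAC. The WT groups did not overlap, and cKO sham replicate 2 (9.19 CPM) reached the level of cKO TAC. Ccr2 rose by 1.32 (SE 0.35, adjusted p = 0.0173) in WT and 0.92 (SE 0.32, adjusted p = 0.0435) in cKO. Ly6c2, a surface antigen of inflammatory monocytes with the near-identical neighbour Ly6c1, averaged 0.284 ± 0.329 CPM after sham and 0.576 ± 0.158 CPM after TAC in WT, and 0.439 ± 0.14 CPM and 0.574 ± 0.212 CPM in cKO. Plac8, a protein abundant in monocytes, averaged 0.392 ± 0.391 CPM, 0.486 ± 0.178 CPM, 0.306 ± 0.057 CPM and 0.641 ± 0.682 CPM. In a fit without the filter the difference with TAC was log2 1.00 (SE 0.60, adjusted p = 0.43) for Ly6c2 and log2 0.28 (SE 0.61, adjusted p = 0.942) for Plac8 in WT, and log2 0.37 (SE 0.55, adjusted p = 0.764) and log2 1.04 (SE 0.60, adjusted p = 0.362) in cKO. Neither gene was called in any comparison by any alternative that held it. In WT the call was lost for Ccr2 without any 1 of WT sham replicate 2 and WT TAC replicates 1 and 2 (log2 1.15 to 1.23). In cKO it was lost for Ccr2 without any 1 of cKO sham replicates 1, 3 and 4 and cKO TAC replicates 1, 2, 3 and 4 (log2 0.74 to 1.00). Ccr2 in WT also missed the threshold without a filter on low counts (adjusted p = 0.0531). Ccr2 in cKO also missed the threshold without a filter on low counts (adjusted p = 0.129) and when the other 2 groups were kept out of the fit (adjusted p = 0.0688).

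The 7 genes of leukocyte surface and signalling rose in 4 cases in each genotype, Ptprc, Cybb and Fcer1g in both, Itgb2 in WT and Laptm5 in cKO. Ptprc (ENSMUSG00000026395) encodes CD45, the phosphatase carried by all leukocytes, and was at 6.42, 4.4, 4.73 and 6.34 CPM after sham and 13.2, 13.9, 9.84 and 11.5 CPM after TAC in WT. Ptprc in cKO was at 6.26, 13.4, 8.04 and 7.12 CPM after sham and 18.1, 11.9, 12.5 and 17.1 CPM after TAC. WT sham and TAC were apart, and cKO sham replicate 2 (13.4 CPM) exceeded cKO TAC replicates 2 and 3. Ptprc rose by 1.14 (SE 0.22, adjusted p = 0.00243) in WT, the smallest adjusted p of all members there, and by 0.77 (SE 0.21, adjusted p = 0.0124) in cKO. Cybb (ENSMUSG00000015340), the catalytic subunit of the phagocyte NADPH oxidase, was at 6.88, 5.9, 8.65 and 7.89 CPM after sham and 15.7, 9.09, 11.5 and 12.4 CPM after TAC in WT. Cybb in cKO was at 5.09, 13.3, 9.68 and 8.72 CPM after sham and 22.1, 13.3, 15.5 and 17.2 CPM after TAC. Sham and TAC did not overlap in WT, and in cKO the highest sham and the lowest TAC library were equal to 3 digits. Cybb rose by 0.74 (SE 0.24, adjusted p = 0.0448) in WT and 0.89 (SE 0.23, adjusted p = 0.00932) in cKO. Laptm5 (ENSMUSG00000028581), a lysosomal membrane protein of blood cells, was at 37.8, 16.3, 23.3 and 15.2 CPM after sham and 45.2, 36.3, 30.2 and 37.7 CPM after TAC in WT. Laptm5 in cKO was at 23.1, 39.9, 24.8 and 26.6 CPM after sham and 62.4, 43.2, 41.8 and 47.6 CPM after TAC. WT sham replicate 1 (37.8 CPM) reached the range of TAC, while the cKO groups were apart. Laptm5 rose by 0.77 (SE 0.25, adjusted p = 0.0355) in cKO and was at 0.69 (SE 0.26, adjusted p = 0.0795) in WT. DESeq2 and limma voom called Laptm5 in WT as well.

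Fcer1g, an adaptor of Fc receptors, rose by 0.78 (SE 0.20, adjusted p = 0.0148) in WT and 0.71 (SE 0.20, adjusted p = 0.0128) in cKO. Itgb2, the beta chain of leukocyte integrins, rose by 0.95 (SE 0.24, adjusted p = 0.0145) in WT and was at 0.62 (SE 0.23, adjusted p = 0.0537) in cKO. DESeq2 and limma voom called Itgb2 in cKO as well. The partner chain of Itgb2, Itgam, was at 0.57 and 0.41, and the adaptor Tyrobp at 0.57 and 0.50, with neither past the threshold. The call of Itgb2 in WT was lost without WT TAC replicate 1 (log2 0.84). The call of Fcer1g in WT was lost without WT sham replicate 4 (log2 0.65). The call of Cybb in WT was lost without any 1 of WT sham replicates 1, 2 and 4 and WT TAC replicates 1, 3 and 4 (log2 0.59 to 0.77). In cKO it was lost for Fcer1g without cKO TAC replicate 1 (log2 0.58) and Laptm5 without any 1 of cKO sham replicates 1, 3 and 4 and cKO TAC replicates 1, 2 and 4 (log2 0.62 to 0.81). Cybb in WT also missed the threshold without a filter on low counts (adjusted p = 0.0969), with limma voom (adjusted p = 0.0626) and without the 2 WT libraries rich in atrial transcripts (adjusted p = 0.0719). Laptm5 in cKO also missed the threshold without a filter on low counts (adjusted p = 0.117) and without the 2 WT libraries rich in atrial transcripts (adjusted p = 0.0531).

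Trem2, Spp1, Lgals3 and Gpnmb are known from macrophages that handle lipid. Trem2 passed in both genotypes, Spp1 passed in cKO with a similar estimate just short of the threshold in WT, and Lgals3 and Gpnmb did not pass. Trem2 (ENSMUSG00000023992), a receptor for lipids and dying cells, was at 3.37, 0.672, 1.63 and 1.39 CPM after sham and 6.71, 3.44, 3.43 and 3.97 CPM after TAC in WT. Trem2 in cKO was at 2.48, 5.18, 3.72 and 3.39 CPM after sham and 8.77, 6.95, 6.44 and 6.89 CPM after TAC. WT sham replicate 1 (3.37 CPM) lay just under the lowest TAC library (3.43 CPM), and the cKO groups were apart. Trem2 rose by 1.31 (SE 0.35, adjusted p = 0.0174) in WT and 0.97 (SE 0.32, adjusted p = 0.0311) in cKO. Spp1 (ENSMUSG00000029304), the secreted protein osteopontin, was at 0.535, 1.12, 1.26 and 0.541 CPM after sham and 2.19, 2.29, 2.14 and 8.16 CPM after TAC in WT. Spp1 in cKO was at 0.522, 2.2, 0.372 and 0.83 CPM after sham and 9.02, 3.66, 1.19 and 3.08 CPM after TAC. The WT groups of Spp1 did not overlap. WT TAC replicate 4 and cKO TAC replicate 1 were the highest of their groups, and cKO TAC replicate 3 lay within the range of cKO sham. Spp1 rose by 2.08 (SE 0.67, adjusted p = 0.0311) in cKO and was at 2.10 (SE 0.69, adjusted p = 0.0513) in WT. DESeq2 called Spp1 in WT as well, and its interaction estimate was -0.01 (SE 0.89). Lgals3 (ENSMUSG00000050335), the galactose binding lectin galectin-3, was at 6.5, 4.85, 16.7 and 2.47 CPM after sham and 13.8, 9.25, 5.5 and 8.28 CPM after TAC in WT. Lgals3 in cKO was at 5.35, 12.2, 8.04 and 7.89 CPM after sham and 19, 12.9, 10.4 and 11.4 CPM after TAC. WT sham replicate 3, the library with the most atrial transcripts, was above all WT TAC libraries for Lgals3. It did not pass (log2 0.26, SE 0.46, adjusted p = 0.741 in WT and log2 0.69, SE 0.45, adjusted p = 0.284 in cKO). Gpnmb, a membrane glycoprotein of lysosomes, was at 0.21 (SE 0.40, adjusted p = 0.77) in WT and -0.26 (SE 0.41, adjusted p = 0.682) in cKO. In WT the call was lost for Trem2 without any 1 of WT sham replicate 4 and WT TAC replicate 1 (log2 1.03 to 1.22). In cKO it was lost for Trem2 without any 1 of cKO sham replicates 1, 3 and 4 and cKO TAC replicates 1, 2 and 4 (log2 0.82 to 0.99) and Spp1 without any 1 of cKO sham replicates 1, 3 and 4 and cKO TAC replicates 1 and 2 (log2 1.40 to 2.14). Trem2 in WT also missed the threshold when the other 2 groups were kept out of the fit (adjusted p = 0.0585). Trem2 in cKO also missed the threshold without both cKO sham replicate 2 and cKO TAC replicate 1 (adjusted p = 0.0509). Spp1 in cKO also missed the threshold without a filter on low counts (adjusted p = 0.106) and when the other 2 groups were kept out of the fit (adjusted p = 0.0502).

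No gene of antigen presentation passed, although all 5 estimates were positive in both genotypes. At an unadjusted p under 0.05, 2 were higher in WT and 1 in cKO; DESeq2 and limma voom called 0 in WT and 1, Cd86, in cKO. Cd74 (ENSMUSG00000024610), which escorts class II molecules, was at 161, 124, 94.4 and 113 CPM after sham and 186, 134, 101 and 156 CPM after TAC in WT. Cd74 in cKO was at 109.9, 155, 155 and 112 CPM after sham and 212, 115, 162 and 140.3 CPM after TAC. H2-Aa (ENSMUSG00000036594), the alpha chain of the class II molecule I-A, was at 48.9, 39.9, 31.7 and 45.2 CPM after sham and 64.3, 56.2, 41 and 63.5 CPM after TAC in WT. H2-Aa in cKO was at 39.4, 53.1, 45.7 and 38.2 CPM after sham and 74.4, 42.7, 69.8 and 45.1 CPM after TAC. All groups overlapped for both genes. The difference with TAC was, for Cd74, 0.23 (SE 0.21, adjusted p = 0.501) in WT and 0.24 (SE 0.21, adjusted p = 0.438) in cKO, and for H2-Aa 0.44 (SE 0.19, adjusted p = 0.131) and 0.39 (SE 0.19, adjusted p = 0.146). The chains H2-Ab1 and H2-Eb1 were at 0.39 and 0.43 in WT and both at 0.33 in cKO. Cd86 (ENSMUSG00000022901), a costimulator of T cells, was at 3.14, 2.91, 2.22 and 1.86 CPM after sham and 3.65, 3.29, 3.76 and 3.73 CPM after TAC in WT. Cd86 in cKO was at 2.28, 4.27, 3.2 and 4.08 CPM after sham and 6.69, 4.23, 4.88 and 4.72 CPM after TAC. WT TAC lay above WT sham in every library, but Cd86 did not pass (log2 0.51, SE 0.23, adjusted p = 0.13 in WT and log2 0.57, SE 0.22, adjusted p = 0.0588 in cKO). The group median was 0.43 in WT and 0.33 in cKO.

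Class II genes are known to share promoter boxes, and the start regions of 2 of them are shown because both carry such a box while neither gene passed. Capitals mark CTGATTGG, a core of the Y box bound by NF-Y, searched on both strands. The H2-Aa window is chr17:34287774-34288073 on the minus strand and the H2-Eb1 window chr17:34305617-34305916 on the plus strand, both from RefSeq on GRCm38.p6.
H2-Aa: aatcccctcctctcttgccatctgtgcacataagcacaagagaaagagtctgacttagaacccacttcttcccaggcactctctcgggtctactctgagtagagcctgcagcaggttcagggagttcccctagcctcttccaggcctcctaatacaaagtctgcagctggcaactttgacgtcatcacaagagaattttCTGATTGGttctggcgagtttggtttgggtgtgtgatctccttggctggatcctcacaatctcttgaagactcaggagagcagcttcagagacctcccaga
H2-Eb1: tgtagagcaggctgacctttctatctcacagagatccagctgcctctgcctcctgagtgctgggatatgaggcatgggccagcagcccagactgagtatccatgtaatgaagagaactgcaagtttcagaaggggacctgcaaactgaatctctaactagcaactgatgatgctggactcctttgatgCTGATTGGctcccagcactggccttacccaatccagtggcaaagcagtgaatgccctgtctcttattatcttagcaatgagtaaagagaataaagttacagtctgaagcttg
The motif began 51 bases before the start of H2-Aa and 62 before that of H2-Eb1. It was present in 4 of the 37 windows of members (10.8%; the others are Plac8 and Spp1), against 4.1% of all windows.

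With TAC, Ccl2, Ccl7 and Ccl12, which encode ligands of CCR2, rose in WT, and Ccl12 rose in cKO. Ccl12 (ENSMUSG00000035352) was at 0.306, 0.821, 0.739 and 0.851 CPM after sham and 1.79, 3.21, 4.6 and 1.34 CPM after TAC in WT. Ccl12 in cKO was at 1.04, 1.49, 1.34 and 1.87 CPM after sham and 3.15, 2.72, 4 and 1.93 CPM after TAC. Sham and TAC were apart in both genotypes. Ccl12 rose by 1.99 (SE 0.40, adjusted p = 0.00299) in WT and 1.04 (SE 0.36, adjusted p = 0.0402) in cKO. Ccl2 (ENSMUSG00000035385) was at 2.83, 1.19, 1.77 and 1.7 CPM after sham and 3.99, 11.3, 7.97 and 2.45 CPM after TAC in WT. Ccl2 in cKO was at 1.83, 4.66, 3.35 and 1.66 CPM after sham and 2.14, 3.41, 4.75 and 1.51 CPM after TAC. WT TAC replicates 2 and 3 were high, and replicate 4 lay within the range of sham, and the cKO groups covered the same range. Ccl2 rose by 1.76 (SE 0.49, adjusted p = 0.0225) in WT and was at 0.04 (SE 0.48, adjusted p = 0.966) in cKO. Ccl7 rose from 1.56 ± 0.563 CPM to 3.91 ± 1.88 CPM in WT (log2 1.31, SE 0.41, adjusted p = 0.036). Ccl7 averaged 2.03 ± 1.28 CPM in cKO sham and 1.75 ± 0.466 CPM in cKO TAC (log2 -0.22, SE 0.41, adjusted p = 0.735). These genes are close paralogs in 1 cluster, and the counting may have split reads between them. In WT the call was lost for Ccl2 without any 1 of WT sham replicates 2 and 4 and WT TAC replicate 2 (log2 1.35 to 1.72) and Ccl7 without any 1 of WT sham replicates 2 and 4 and WT TAC replicates 2 and 3 (log2 1.00 to 1.22). In cKO it was lost for Ccl12 without any 1 of cKO sham replicates 1, 2 and 3 and cKO TAC replicates 1, 2 and 3 (log2 0.85 to 1.06). Ccl2 in WT also missed the threshold without a filter on low counts (adjusted p = 0.0814) and with limma voom (adjusted p = 0.0583). Ccl7 in WT also missed the threshold with limma voom (adjusted p = 0.0554). Ccl12 in cKO also missed the threshold with limma voom (adjusted p = 0.0543) and without both cKO sham replicate 2 and cKO TAC replicate 1 (adjusted p = 0.115).

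Ccl6 and Ccl9 encode ligands of the receptor CCR1 and are paralogs of each other. Ccl6 (ENSMUSG00000018927) was at 7.65, 8.06, 12.3 and 4.64 CPM after sham and 13.2, 11.2, 13.1 and 13.6 CPM after TAC in WT. Ccl6 in cKO was at 13.5, 34.2, 17.9 and 18.3 CPM after sham and 24.7, 26.7, 15.5 and 10.3 CPM after TAC. Ccl9 (ENSMUSG00000019122) was at 6.88, 8.66, 8.42 and 5.49 CPM after sham and 12.6, 10.3, 10.4 and 11.4 CPM after TAC in WT. Ccl9 in cKO was at 12.8, 26.9, 12.4 and 17.2 CPM after sham and 20.4, 19.3, 14.8 and 9.86 CPM after TAC. Both genes were higher in every cKO sham library than in every WT sham library, and cKO sham replicate 2 was the highest of all. TAC did not move them past the threshold (0.64 (SE 0.35, adjusted p = 0.222) for Ccl6 and 0.60 (SE 0.26, adjusted p = 0.119) for Ccl9 in WT, -0.12 (SE 0.32, adjusted p = 0.82) and -0.11 (SE 0.24, adjusted p = 0.779) in cKO).

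**Figure D4:**
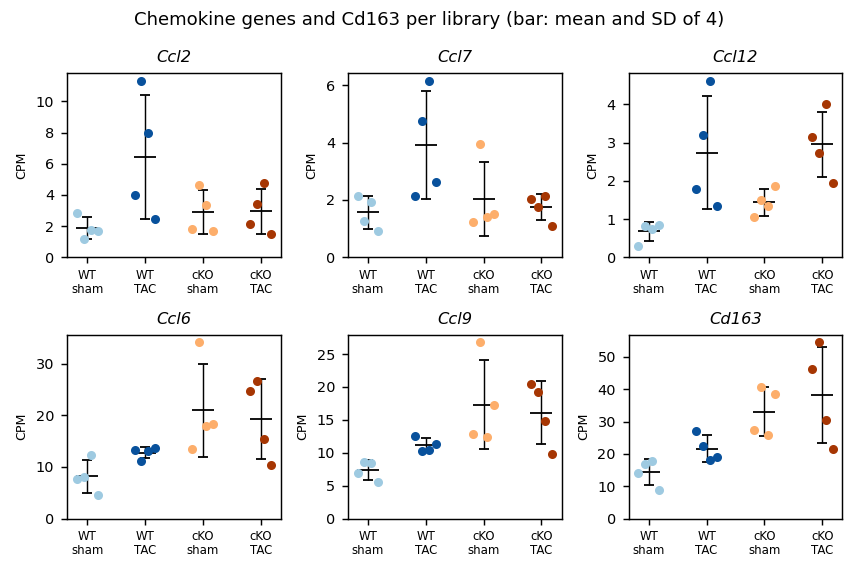
CPM per library of the 5 chemokine genes and of Cd163, by group; bars give the mean and SD of 4 libraries, and each axis starts at 0. Ccl2 and Ccl7 are spread widely in WT TAC and lie low in cKO TAC, while Ccl6, Ccl9 and Cd163 lie higher in cKO sham than in WT sham.

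The second question was whether the knockout changed these genes at a given surgery. Under sham, Ccl9 was the only member called, higher in cKO at 17.3 ± 6.77 CPM against 7.36 ± 1.48 CPM in WT (log2 1.23, SE 0.25, adjusted p = 0.024). No member was called lower. The 1 of 41 members is 2.44%, against 0.618% of all genes called higher and 0.552% called lower. At an unadjusted p under 0.05, 17 members were higher and 0 lower, and the median log2 difference was 0.38 over the members and -0.01 over all genes. Of all 15206 genes, 2284 were under that p, in either direction. DESeq2 called 6 members higher (Ccl6, Ccl9, Cd14, Cd163, Fcgr1 and Itgb2) and limma voom 2 (Ccl9 and Cd163), and neither called any lower. Of all genes, DESeq2 called 266 higher and 280 lower and limma voom 95 and 88, against 94 and 84 by edgeR. Next to the threshold stood Cd163 (log2 1.20, SE 0.28, adjusted p = 0.0517), Ccl6 (log2 1.36, SE 0.34, adjusted p = 0.072) and Cd14 (log2 0.90, SE 0.24, adjusted p = 0.0766). Fcgr1 was at 0.82 (SE 0.24, adjusted p = 0.108), Itgb2 at 0.84 (SE 0.25, adjusted p = 0.105) and Trem2 at 1.07 (SE 0.36, adjusted p = 0.148). Every cKO sham library was above every WT sham library for 6 members, Fcgr1, Cd163, Lyve1, Ccl12, Ccl6 and Ccl9, against 4.00% of all genes. For Timd4 every cKO sham library was below every WT sham library, against 3.59% of all genes, and it did not pass (log2 -0.78, SE 0.38, adjusted p = 0.341).

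This comparison uses the WT sham libraries, as does that of WT TAC with WT sham, so the 2 sets of differences are not independent. The call of Ccl9 was lost without any 1 of WT sham replicates 1 and 4 and cKO sham replicates 2 and 4 (log2 0.94 to 1.24), and without a filter on low counts. Leaving out single libraries gave 0 to 2 called members. The count was 2 without WT sham replicate 3 or cKO sham replicate 1, and 0 without WT sham replicate 4, cKO sham replicate 2 or cKO sham replicate 4. With cKO sham replicate 2 and cKO TAC replicate 1 both left out, 1 member was called.

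Under TAC no member passed between genotypes, against 0.598% of all genes called higher and 1.18% called lower in cKO. At an unadjusted p under 0.05, 11 members were higher and 2 lower, and the median log2 difference was 0.36 against 0.00 over all genes. Of all 15206 genes, 2643 were under that p, in either direction. DESeq2 called 2 members higher, Cd163 and Mrc1, and limma voom 0. Of all genes, DESeq2 called 291 higher and 535 lower, against 91 and 180 by edgeR. Without cKO TAC replicate 3, Mrc1 passed (log2 0.77). The positive estimates reached 0.82 for Cd163 (adjusted p = 0.123), 0.72 for Trem2, 0.65 for Mrc1 and 0.64 for Fcgr1. The lowest were Ccl7 (log2 -1.15, SE 0.40, adjusted p = 0.13) and Ccl2 (log2 -1.11, SE 0.46, adjusted p = 0.223). For Fcgr1, Mrc1 and Cd86 every cKO TAC library lay above every WT TAC library, 3 members against 4.89% of all genes. For Ccl7 every cKO TAC library lay below every WT TAC library, against 5.11% of all genes.

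**Figure D5:**
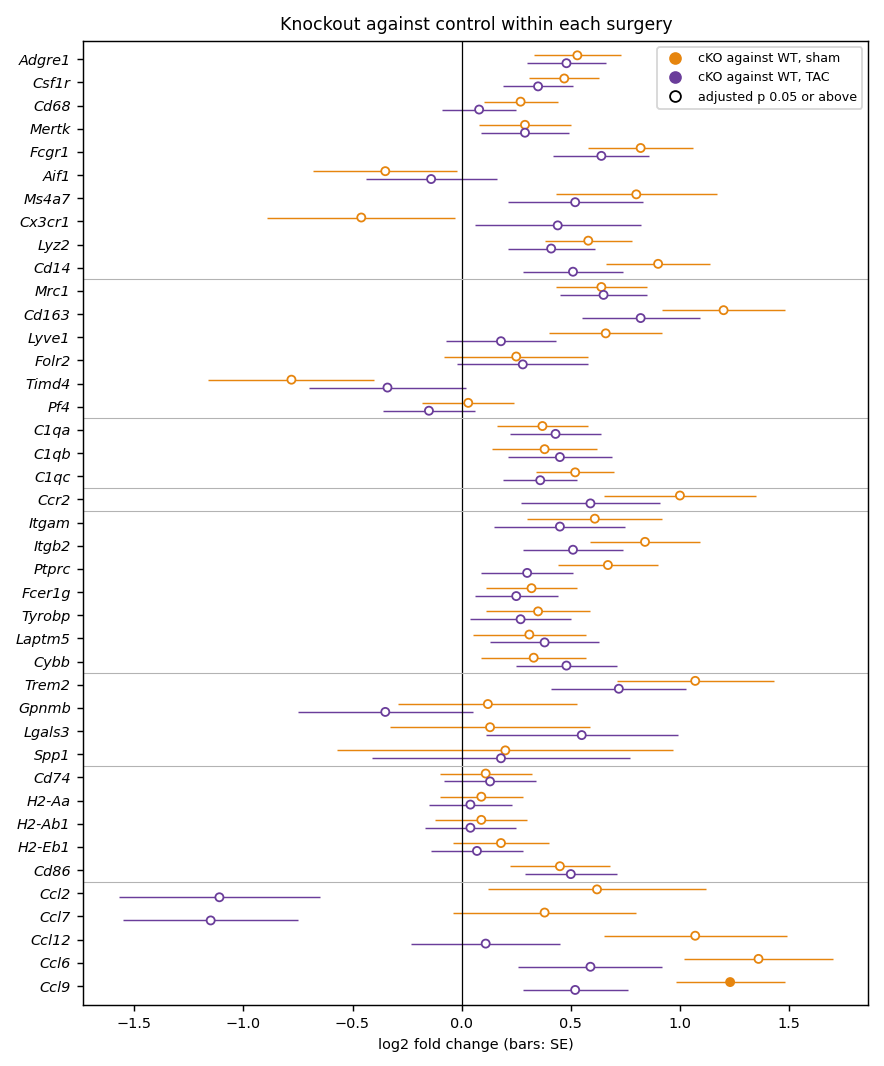
Log2 difference of cKO from WT under sham (orange) and under TAC (purple) for the 41 tested members, with bars for the SE and filled points for an adjusted p under 0.05. Most points lie right of 0 at both surgeries, Ccl9 under sham is the only filled point, and Ccl2 and Ccl7 lie left of 0 under TAC.

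The interaction subtracts the log2 response to TAC of WT from that of cKO, and it gave 0 calls among the members and 0% of all 15206 genes, higher or lower, by edgeR. DESeq2 and limma voom gave 0 among the members as well. At an unadjusted p under 0.05, 2 members were lower, Ccl2 (log2 -1.73, SE 0.68, adjusted p = 0.946) and Ccl7 (log2 -1.53, SE 0.58, adjusted p = 0.946). These 2 of 41 are a similar share to the 715 of all 15206 genes under that p in either direction. Over the members, 29 estimates were negative and 12 positive. All 5 chemokine genes had negative estimates, from -1.73 to -0.71, while the other groups had estimates on both sides of 0 except for Ccr2, the only gene of its group, at -0.40. Cx3cr1 had the highest estimate (log2 0.90, SE 0.57, adjusted p = 0.946). The median over the members was -0.12 and over all genes 0.00. A p that misses the threshold does not show that the genotypes responded alike.

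Genes that work with the members were drawn from a list of 63, of which 55 were tested. With TAC, 18 were higher and 2 lower in WT, and 21 higher and 3 lower in cKO. Of 11 transcription factors of the lineage, 5 rose in WT and 4 in cKO. Runx1, a factor of blood cell formation, rose by 1.36 (SE 0.25, adjusted p = 0.00152) and 1.77 (SE 0.24, adjusted p = 9.26e-05). The interferon regulatory factor Irf8 rose by 0.82 (SE 0.16, adjusted p = 0.00222) and 0.58 (SE 0.16, adjusted p = 0.0103), and Spi1, which encodes PU.1, by 0.80 (SE 0.21, adjusted p = 0.017) and 0.63 (SE 0.21, adjusted p = 0.0333). Among 6 tested growth factor and receptor genes, Csf2ra rose in WT (log2 0.30, SE 0.10, adjusted p = 0.0458). In cKO 3 rose, namely Cx3cl1, the ligand of CX3CR1 (log2 0.88, SE 0.25, adjusted p = 0.0169), Csf1, the ligand of CSF1R (log2 0.57, SE 0.17, adjusted p = 0.0195), and Csf2rb (log2 1.12, SE 0.37, adjusted p = 0.0349).

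Of 8 genes of the oxidase and Fc receptors, 4 rose in each genotype. The oxidase subunit gene Ncf1 rose by 0.99 (SE 0.22, adjusted p = 0.0054) in WT and 0.85 (SE 0.20, adjusted p = 0.00553) in cKO, and the Fc receptor gene Fcgr3 by 0.88 (SE 0.18, adjusted p = 0.00323) and 0.58 (SE 0.17, adjusted p = 0.0181). Of 7 genes for the uptake of dying cells, Axl, Pros1, Stab1 and Tyro3 rose in both genotypes, with Pros1 at 0.51 (SE 0.11, adjusted p = 0.00614) and 0.54 (SE 0.11, adjusted p = 0.00212). Cd36 and Lpl, which cardiomyocytes also express strongly, fell in both, Cd36 at -0.36 and -0.45 and Lpl at -0.43 and -0.41. Of 7 lipid handling genes, Abcg1, Cd9 and Fabp5 rose in both. The cholesterol exporter gene Abcg1 was at 0.83 (SE 0.13, adjusted p = 0.000491) in WT and 0.87 (SE 0.13, adjusted p = 0.00017) in cKO. Of 6 tested partners of class II, none rose in WT by edgeR (3 at an unadjusted p under 0.05) and Cd80 rose in cKO (log2 1.30, SE 0.37, adjusted p = 0.014). Of 7 further chemokines and receptors, none passed in WT (4 at an unadjusted p under 0.05), and in cKO Cxcl16 rose (log2 0.86, SE 0.20, adjusted p = 0.00414) and Ccl24 fell (log2 -1.28, SE 0.45, adjusted p = 0.041). Of 3 tested cytokine genes, Tgfb1 rose in both (0.49 (SE 0.16, adjusted p = 0.0479) and 0.60 (SE 0.16, adjusted p = 0.0118)). Between the genotypes Fcgr3 was higher in cKO under sham (log2 0.79, SE 0.18, adjusted p = 0.0356) and none passed under TAC (10 at an unadjusted p under 0.05).

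Several genes used here are also expressed by other leukocytes. Markers of T cells, NK cells, neutrophils and mast cells were low, with sums of at most 6.88 CPM, and B cell markers were higher. Neutrophil markers summed to 1.16 to 6.88 CPM after sham and 0.864 to 2.68 after TAC in WT, and to 0.587 to 2.46 and 0.605 to 2.27 in cKO, and 1 of the 10 was tested and not called. Ly6g, which defines neutrophils, had no count in any library, which allows up to 0.184 to 0.232 CPM by the limit of 3 counts. T cell markers (9 genes, 2 tested) summed to 1.49 to 3.55, 2.07 to 4.74, 2.22 to 3.95 and 3.44 to 5.49 CPM in the same order, and NK cell markers (5 genes, none tested) to 0.224 to 0.994, 0.389 to 0.993, 0.346 to 1.36 and 0.442 to 0.813. B cell markers (6 genes, 3 tested) summed to 8.43 to 15.4, 12.3 to 16.8, 7.89 to 14.2 and 11.2 to 35.5 CPM. The last value was in cKO TAC replicate 1, the highest of all 16 libraries for 25 tested members. Mast cell markers (5 genes, 1 tested) summed to 1.55 to 3.37, 0.93 to 4.32, 0.647 to 2.53 and 0.423 to 1.45. None of these lists had a gene called by edgeR with TAC, while 2 T cell genes in WT and 1 in cKO were at an unadjusted p under 0.05. The 2 in WT went in opposite directions (log2 0.76 and -0.88). Dendritic cell markers (8 genes, 4 tested) were more abundant, at 24.1 to 30.4, 31.6 to 33.6, 22 to 36 and 29.6 to 36.1 CPM in that order. Cd209a was higher with TAC in WT (log2 2.57, SE 0.72, adjusted p = 0.0221) and Itgax in cKO (log2 1.02, SE 0.31, adjusted p = 0.0221).

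Other cells of the ventricle moved with TAC too. Fibroblast markers summed to 461 to 799.7 CPM after sham and 882 to 1598 after TAC in WT, and to 590.4 to 849.8 and 1395 to 2499.9 in cKO; 3 of 6 rose in WT and 4 of 6 in cKO. Pdgfra of this list was also higher in cKO than in WT after TAC (log2 0.60, SE 0.13, adjusted p = 0.0303). Cell cycle genes rose in 5 of 5 cases in both genotypes and summed, in the same order, to 7.61 to 11.2, 53.5 to 112, 8.26 to 16.4 and 70.4 to 98.6 CPM. Cardiomyocyte markers summed to 59826 to 68709, 49423 to 59534, 56879.6 to 67206 and 37860.3 to 53244 CPM, with 2 of 7 lower in WT and 5 of 7 lower in cKO. Endothelial markers rose in 2 of 5 cases in both genotypes. The lowest cardiomyocyte sum and the highest fibroblast sum were both in cKO TAC replicate 1, the highest of all 16 libraries for 25 members. The lowest cardiomyocyte sum of cKO sham was in replicate 2, the highest of its group for 36 members and of all 16 libraries for 4. Erythrocyte markers summed to 325 to 1248, 181 to 498, 155 to 475 and 180.1 to 468 CPM, with the highest in WT sham replicate 1, and no gene of this list was called. The part of these shifts in the results above was not tested.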

How the data were processed

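Per Ensembl gene ID and library, the authors deposited raw whole-number counts in a single table, not normalized. FastQC, fastp (0.22.0), the aligner HISAT2 (2.0.5), SAMtools (1.21) and the read counter featureCounts (2.0.6) are listed in the submitters' processing notes, beside the build GRCm39, with no settings. Strandedness, annotation release and multimapping are not given in the sources used here. Symbols came from a GRCm38 annotation, and rows with a symbol held 99.5% of counts.

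The tests used edgeR 4.0.16 (R 4.3.3): filterByExpr removed low genes, TMM set the scale, and all genes were fitted by a robust quasi-likelihood model with 1 mean per group over all 16 libraries, which leaves 12 residual degrees of freedom. Benjamini-Hochberg adjustment ran over all 15206 tested genes in each of 5 comparisons. SE values are on the log2 scale, from the F statistic. The steps were tested on simulated data.

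The members, roles, partners and markers were chosen with earlier results of these data known. Values in all libraries are printed for members called between genotypes, for the 2 smallest adjusted p with TAC in each role, and for the member of each role with the highest mean CPM, not corrected for length; other members are given by means and fold changes, and the fuller detail on Ccl7, Cd163, Lyve1, Timd4 and Pf4 was chosen after their values were seen. Of partners, at most 3 genes a group are named with their statistics, those of the smallest adjusted p. The series' design text calls the replicates biological. Alternatives were DESeq2 1.42.0, limma 3.58.1 voom, other scalings and filters, the compared groups alone, a replicate block, and leaving out libraries. A fit without cKO sham replicate 2 and cKO TAC replicate 1 was chosen after seeing the data.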

Additional observations from a re-analysis of the deposited data

Results flagged for a closer look

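Across 164 groups of 4 libraries (41 members in 4 groups), 3 held a library whose gap to the nearest of the others, relative to the range of the group, was above Dixon's 95% critical value. Chance gives about 1 in 20 such groups. Trem2 stood at 6.71 CPM in WT TAC replicate 1, against 3.43 to 3.97 CPM in the other libraries of that group. Spp1 stood at 8.16 CPM in WT TAC replicate 4, against 2.14 to 2.29 CPM in the others. Ccl7 stood at 3.95 CPM in cKO sham replicate 2, against 1.24 to 1.52 CPM in the others.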

How the results depend on the processing

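No called member changed direction under any alternative tried. Across settings other than leaving out 1 library, 12 to 21 members were higher with TAC in WT (16 as reported) and 11 to 23 in cKO (17), where 11 came from the fit without a filter on low counts. For cKO sham against WT sham the 1 call became 0 without that filter, 2 with at least 1 CPM in 4 libraries, 6 with the DESeq2 Wald test, 2 with limma voom, 2 when the other groups were kept out of the fit and 2 with the replicate block. For cKO TAC against WT TAC, 0 became 2 with the DESeq2 Wald test. DESeq2 called more genes in all, 266 higher under sham and 291 under TAC, against 94 and 91 by edgeR. Leaving out 1 library at a time gave 8 to 18 members in WT, 5 to 23 in cKO, 0 to 2 between genotypes under sham and 0 to 1 under TAC, and fewer libraries remained in each such fit. With TAC, the calls over all genes ranged in these fits from 897 to 1485 higher in WT and from 1447 to 2234 in cKO. The cause of the other changes was not tested. The interaction uses all 4 groups, so the fit limited to the compared groups was not run there.

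Deviations from the group mean correlated at r from -0.16 to 0.229 between same-numbered libraries over the 4 comparisons. Between differently numbered libraries r ran from -0.281 to 0.239. The labels do not say whether the numbers pair the samples, and these correlations cannot decide it. With the replicate block, 14 members were called higher with TAC in WT and 16 in cKO, 2 under sham and 0 under TAC between genotypes; the calls of Mrc1 (adjusted p = 0.0609) and Cybb (0.0777) in WT and of Csf1r (0.0536) in cKO did not pass in it. Not every library correlated best with its own number. Low counts kept Ly6c2 and Plac8 below the filter; the fits that held them called neither.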
